A study of Mus musculus with 2 samples.

Results

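The clustered histone genes are the repeated genes of the core and linker histones that sit side by side in the genome, named in the older mouse nomenclature by cluster and family (Hist1h2ap is an H2A gene of cluster Hist1). Members were the protein-coding genes of GENCODE release M21 whose symbol begins with Hist1h, Hist2h, Hist3h or Hist4h, grouped into the families H1, H2A, H2B, H3 and H4. There were 67 such genes, of which 64 had a row in the deposited tables, out of 43346 mouse genes and 21474 protein-coding genes there. Hist1h2bh, Hist1h2bm and Hist2h2bb had no row under their own gene identifier. Levels came from total RNA-seq of embryonic day 11.5 livers of strain B6NCrl, in 2 libraries that form 1 group without a control. Each library came from a pool of male and female embryos, 109 of them for replicate 1 and an unstated number for replicate 2. Per the labels, long RNA, without the small RNA fraction, was extracted with a mirVana kit, 10 ng went into a library with spiked-in control RNAs, and the protocol document is named for Smart-seq. No condition could be tested, so the text describes members beside each other and pool beside pool.

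Histones package DNA into nucleosomes, with pairs of H2A, H2B, H3 and H4 in the core and H1 on the linker. Most clustered genes are transcribed in S phase, and their mRNAs are the animal mRNAs that end in a conserved stem-loop in place of a poly(A) tail. The stem-loop is bound by SLBP and cut by a complex that includes the U7 snRNP. Replacement variants such as H3.3 and H2A.Z mostly come from single genes with polyadenylated mRNAs, and many are made throughout the cell cycle. The liver at this stage holds many dividing red cell precursors. Smart-seq in its usual form primes cDNA on poly(A), but how cDNA was primed here, and whether ribosomal RNA was depleted, is not stated in the labels, so absolute levels of mRNAs without a tail are uncertain.

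Of the 64 measured members, a stem-loop of 16 bases was found in the M21 transcript of 44, with the whole transcript searched. It lay within 50 bases of the transcript end in 19 and farther from the end in 25. For 21 members the M21 transcript differs in length or version from the deposited model. The search asked for a stem of 6 perfectly paired bases that begins GG and ends CC around a loop of 4 bases, with T as the first and the third loop base. It was present in 4 of 6 H1, 11 of 18 H2A, 8 of 15 H2B, 9 of 12 H3 and 12 of 13 H4 transcripts. Several of the other transcripts end at or near the stop codon in the annotation, so a missing stem-loop says only that these letters are not in the annotated transcript. The sites of members described below are shown 5′ to 3′ on GRCm38, with the stem-loop in capitals, because they show what the families share and where they differ.
Hist1h2ap (chr13:21833027-21833056, minus strand): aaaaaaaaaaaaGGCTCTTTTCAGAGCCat
Hist1h2ao (chr13:21810886-21810915, plus strand): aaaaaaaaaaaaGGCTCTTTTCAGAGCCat
Hist1h2ae (chr13:23570666-23570695, minus strand): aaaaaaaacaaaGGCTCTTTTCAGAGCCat
Hist1h4d (chr13:23581938-23581967, plus strand): ccaaaaaccaaaGGCCCTTTTCAGGGCCac
Hist1h4i (chr13:22040964-22040993, minus strand): atgctacttaaaGGCCCTTTTTAGGGCCac
Hist1h4b (chr13:23757354-23757383, plus strand): actgttacaaaaGGTCCTTTTCAGGACCac
Hist1h3d (chr13:23576232-23576261, plus strand): ttggaccccaaaGGCTCTTTTCAGAGCCac
Hist1h3g (chr13:23535877-23535906, plus strand): aaccactttaaaGGCTCTTCTTAGAGCCac
Hist1h2bj (chr13:22043626-22043655, plus strand): accaaatccaaaGGCTCTTTTCAGAGCCac
Hist1h2bk (chr13:22036288-22036317, plus strand): tctagcaccaaaGGCTCTTTTAAGAGCCac
Hist1h1e (chr13:23621780-23621809, minus strand): caacaacccaaaGGCTCTTTTCAGAGCCac

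The 12 H4 sites had a stem of GGCCCT or GGTCCT, and all 32 sites of the other families had a stem of GGCTCT. The commonest form, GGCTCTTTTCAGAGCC, occurred in 10 of 11 H2A sites, 6 of 8 H2B sites, 5 of 9 H3 sites and 3 of 4 H1 sites. The commonest H4 form, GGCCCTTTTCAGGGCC, occurred in 7 of 12 H4 sites. The loop was TTTC in these common forms, and TCTT in Hist1h3g (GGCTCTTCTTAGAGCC). Hist1h2ap and Hist1h2ao carried 12 A bases directly before the stem-loop, where other sites printed here have shorter runs.

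The clustered genes together reached 5023 TPM (a deposited level per transcript length, scaled to a fixed sum over each library) in replicate 1 and 4948 TPM in replicate 2, a mean of 4986 ± 53.1 TPM (SD, n = 2, as for all mean ± SD values here). That was 0.588% of mouse gene TPM in replicate 1 and 0.556% in replicate 2, from 51403 and 44251 of 31721267 and 29750192 estimated counts on mouse genes. Spike-ins took 14.6% of all TPM in replicate 1 and 11.1% in replicate 2, so TPM values of the libraries are on slightly different bases. Fewer expressing cells and less RNA per cell cannot be told apart in these bulk samples. Detection, set at 1 TPM or above in each library, held for 48 of the 64 members (75.0%), against 56.6% of all protein-coding genes. At 5 TPM it held for 39.1% of members, against 43.5% of protein-coding genes, so the members did not exceed the background at that level. Another 12 members stayed under 1 TPM in both libraries and 4 crossed that level in 1 library.

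H2A transcripts were the most abundant family sum, at 4221 ± 15.9 TPM over 18 genes. H4 followed with 329.9 ± 2.86 TPM over 13 genes, H3 with 252 ± 24.0 TPM over 12, H2B with 101 ± 6.39 TPM over 15 and H1 with 82.0 ± 3.98 TPM over 6. For each neighbouring pair both libraries gave this order, and the means lay farther apart than the larger SD, and the order was the same on estimated counts. The H2A sum rested on 1 gene. Without Hist1h2ap the H2A sum was 253 ± 6.22 TPM and the sum of all members 1018 ± 43.4 TPM, which places H4 above H2A on TPM. On estimated counts that order differed between the libraries. H2A without Hist1h2ap had 2956 counts against 2936 for H4 in replicate 1, and 2472 against 2535 in replicate 2. On TPM, H2A without that gene and H3 differed by less than the larger SD.

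By cluster, the 52 Hist1 genes on chromosome 13 held 4867 ± 42.5 TPM. The 9 Hist2 genes on chromosome 3 held 103 ± 10.5 TPM and the 2 Hist3 genes on chromosome 11 held 15.8 ± 0.417 TPM. Hist4h4, the single member on chromosome 6, had 0.525 ± 0.276 TPM. Members were spread over a wide range. A mean under 1 TPM was found for 13, from 1 to 10 TPM for 32, from 10 to 100 TPM for 15, and from 100 to 1000 TPM for 3. A single gene, Hist1h2ap, lay above 1000 TPM.

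**Figure D1:**
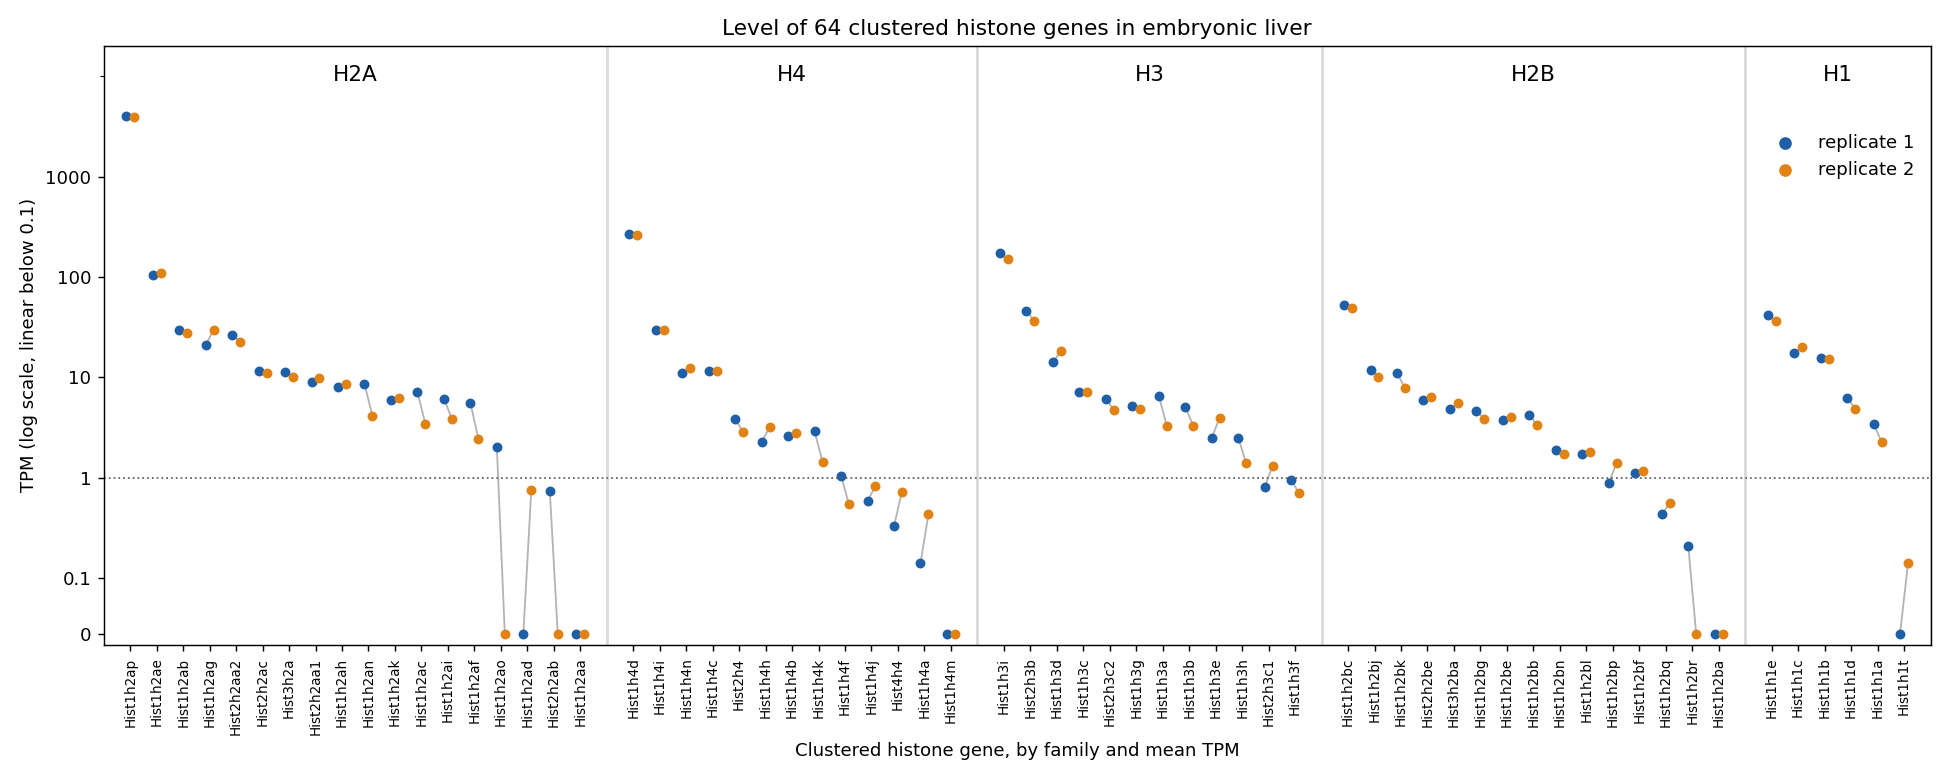
TPM of each of the 64 clustered histone genes (vertical axis, log scale, linear below 0.1) in replicate 1 (blue, left) and replicate 2 (orange, right), by family and mean level, with a dotted line at 1 TPM. Each family has 1 leading gene, and Hist1h2ap, at 3974 and 3961 TPM, stands above all other members.

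H2A and H2B form the dimers that flank the H3 and H4 core of the nucleosome. Hist1h2ap (ENSMUSG00000094777.2, chromosome 13, 21833026 to 21833507, minus strand) had 3974 TPM in replicate 1 and 3961 TPM in replicate 2, from 39299 and 34174 estimated counts. It held 93.9% of H2A TPM in replicate 1 and 94.1% in replicate 2, and ranked 12th by mean TPM among protein-coding genes. The deposited credibility intervals, whose level is not given, ran from 3844 to 3924 TPM in replicate 1 and from 3815 to 3900 TPM in replicate 2, around posterior means below the TPM used here. The next H2A gene, Hist1h2ae, had 105 TPM in replicate 1 and 109 TPM in replicate 2, so Hist1h2ap stood 37.8-fold and 36.4-fold above it. Hist1h2ab had 29.8 and 27.9 TPM in replicates 1 and 2. Hist1h2ag had 20.8 and 29.6 TPM, and Hist2h2aa2 26.5 and 22.7 TPM. All 5 were found in both pools, and the gap after Hist1h2ap far exceeded the difference between the pools.

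The level of Hist1h2ap is uncertain to the extent that the reads of near-identical copies were shared out by a model. Its coding sequence of 390 bases is identical to that of Hist1h2ao (0 differences), and 353 of its 383 windows of 100 bases also occur in Hist1h2ao. Only 7.83% of its windows occur in no other M21 transcript. Hist1h2ao (chromosome 13, 21810465 to 21810944, plus strand) was assigned 2.00 TPM in replicate 1 and 0 TPM in replicate 2, so the tables place nearly all reads of the pair on Hist1h2ap. The sum does not depend on that split. The 9 H2A genes that encode the same protein as Hist1h2ap together reached 4147 ± 10.6 TPM, which was 98.2% of H2A TPM in replicate 1 and 98.3% in replicate 2. A length of 100 bases was taken because deposited lengths exceed effective lengths by 99 bases.

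A run of 10 or more A bases was present in 4 member transcripts. Hist1h2ap and Hist1h2ao had runs of 12 bases directly before the stem-loop, as printed above, Hist1h2ac had a run of 15 and Hist1h2be one of 11. The median of mean TPM was 4.58 over these 4 genes and 4.96 over the other 60. These gene medians do not compare transcripts with and without a run. In Hist1h2be the run lay in 2-exon transcripts at 0 TPM and at 0.54 and 0.68 TPM in replicates 1 and 2. Its 1-exon transcript, with a longest run of 7 bases, had 3.22 and 3.31 TPM. The run of Hist1h2ac was found in an M21 transcript of 2482 bases, but its level came from a deposited model of 476 bases. How reads were split between Hist1h2ap and Hist1h2ao is uncertain, as stated above. Whether an A run has a part in the level of Hist1h2ap was not tested.

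Other H2A members encode proteins of their own. Hist2h2ac had 11.4 TPM in replicate 1 and 11.0 TPM in replicate 2. Its product differs from the common H2A by 6 residues. Hist3h2a had 11.2 and 10.0 TPM (1 residue), Hist1h2ah 7.92 and 8.53 TPM (2 residues), Hist1h2ak 5.95 and 6.18 TPM (1 residue) and Hist1h2af 5.56 and 2.45 TPM (1 residue). Hist2h2aa2 and its copy Hist2h2aa1, which share a protein 4 residues from the common one, summed to 33.9 ± 2.04 TPM, and no window of Hist2h2aa2 was its own. Together these members held under 2% of H2A TPM. Hist2h2ab (9 residues) had 0.730 TPM in replicate 1 and 0 in replicate 2. Hist1h2ad, which encodes the common protein, had 0 TPM in replicate 1 and 0.75 TPM in replicate 2.

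Hist1h2bc led the H2B genes with 52.7 TPM in replicate 1 and 48.7 TPM in replicate 2. That was 50.1% and 50.6% of the TPM summed over H2B gene rows. Its M21 transcript of 1156 bases has 2 exons and no stem-loop in it, but its level came from a deposited model of 736 bases. Among gene rows, Hist1h2bj followed with 11.9 and 10.1 TPM and Hist1h2bk with 11.0 and 7.79 TPM. Hist2h2be had 5.87 and 6.32 TPM and Hist3h2ba 4.84 and 5.51 TPM. Among these rows the drop after Hist1h2bc was 4.42-fold in replicate 1 and 4.81-fold in replicate 2. A transcript of Hist2h2bb, filed under another gene identifier and outside these sums, had 14.4 and 12.2 TPM. That lies above Hist1h2bj, so the drop to the next H2B gene is smaller than among gene rows. By protein, the group of Hist1h2bc, Hist1h2bg and Hist1h2be summed to 58.8 ± 3.25 TPM. This sum takes whole genes, and most of the Hist1h2be TPM in it was on a transcript not annotated as protein-coding. The group of 6 genes around Hist1h2bj, 1 residue away, summed to 16.3 ± 1.35 TPM. Hist1h2bk (2 residues from the Hist1h2bc protein), Hist2h2be (5 residues) and Hist3h2ba (8 residues) each encode a protein of their own, as do Hist1h2bb with 4.23 and 3.31 TPM and Hist1h2bp with 0.890 and 1.41 TPM. The gene rows of Hist1h2bq and Hist1h2br stayed under 1 TPM in both libraries. Single-exon coding transcripts of both were filed under other gene identifiers and lie outside these sums. They had 1.21 and 1.92 TPM for Hist1h2bq and 5.18 and 4.73 TPM for Hist1h2br, in replicates 1 and 2. No window of these single-exon transcripts was their own.

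Hist1h2be had 3 transcripts in the tables. Its 1-exon processed transcript, not annotated as protein-coding, carried 85.7% of the gene's TPM in replicate 1 and 82.9% in replicate 2, by the deposited percent. A 2-exon coding transcript had 0.540 TPM in replicate 1 and 0.680 TPM in replicate 2. The other coding transcript had 0 TPM in both.

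H3 and H4 make up the inner tetramer of the nucleosome. Hist1h4d (ENSMUSG00000061482.6, chromosome 13) had 266 TPM in replicate 1 and 262 TPM in replicate 2, or 80.1% and 79.9% of H4 TPM. Hist1h4i had 29.8 and 29.4 TPM, Hist1h4n 11.1 and 12.3 TPM, Hist1h4c 11.5 TPM in both and Hist2h4 3.85 and 2.84 TPM. All 13 H4 genes encode 1 protein of 103 residues, so their sum of 329.9 ± 2.86 TPM is the level of that coding capacity. None of the 100-base windows of Hist1h4d occurred in another M21 transcript, and its level is therefore less exposed to shared reads than that of Hist1h2ap. Hist1h4j had 0.580 and 0.830 TPM, Hist4h4 0.330 and 0.720 TPM, Hist1h4a 0.140 and 0.430 TPM and Hist1h4m 0 TPM in both. A count of 0 allows up to 0.383 and 0.439 TPM of Hist1h4m for counting error alone, and 11.9% of its windows were its own. The deposited upper credibility bounds were higher, at 2.54 and 2.95 TPM in replicates 1 and 2, with posterior means of 0.86 and 1.08 TPM. Its level is therefore not bounded by the counting limit.

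Hist1h3i led the H3 genes with 172 TPM in replicate 1 and 150 TPM in replicate 2, which was 64.1% and 63.8% of H3 TPM. Hist2h3b had 45.8 and 36.5 TPM, Hist1h3d 14.1 and 18.1 TPM, Hist1h3c 7.21 TPM in both and Hist2h3c2 6.13 and 4.71 TPM. The 12 genes encode 2 proteins that differ by 1 residue, known as H3.1 and H3.2. The 4 genes of the protein encoded by Hist1h3i (H3.1) summed to 173 ± 19.2 TPM. The 8 genes of the protein encoded by Hist2h3b (H3.2) summed to 79.2 ± 4.73 TPM, so the first group was higher in both libraries by more than the larger SD. Hist1h3f stayed under 1 TPM in both, at 0.95 and 0.70 TPM.

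Linker histone H1 genes encode distinct proteins, with at least 29 residue differences between any 2 of them. Hist1h1e had 42.1 TPM in replicate 1 and 36.6 TPM in replicate 2. Hist1h1c had 17.5 and 20.0 TPM, Hist1h1b 15.6 and 15.3 TPM, Hist1h1d 6.27 and 4.88 TPM and Hist1h1a 3.42 and 2.29 TPM. These are the 5 somatic H1 subtypes among the clustered genes, and all were detected.

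The testis member Hist1h1t had 0 counts in replicate 1 and 2 counts in replicate 2. Hist1h2aa and Hist1h2ba, whose products are known from the germ line, had 0 counts in both libraries. A count of 0 allows up to 0.399 TPM of Hist1h2aa in replicate 1 and 0.458 TPM in replicate 2, and up to 0.408 and 0.467 TPM of Hist1h2ba, for counting error alone. The deposited upper credibility bounds were 0.394 and 0.448 TPM for Hist1h2aa and 0.602 and 0.652 TPM for Hist1h2ba.

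The Hist1 cluster falls into 2 blocks on chromosome 13 with 1487 kb between them. The first block spans 328 kb (21715763 to 22043676) with 22 measured members and summed to 4268 ± 29.5 TPM, or 300.3 ± 19.8 TPM without Hist1h2ap. The second spans 404 kb (23531050 to 23934851) with 30 members and summed to 599 ± 13 TPM. A few high genes stood among low ones in both. The median of mean TPM per gene was 5.53 in the first block and 4.10 in the second. Hist1h2ap and Hist1h3i lie in the first block, and Hist1h4d, Hist1h2ae, Hist1h2bc and Hist1h1e in the second.

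**Figure D2:**
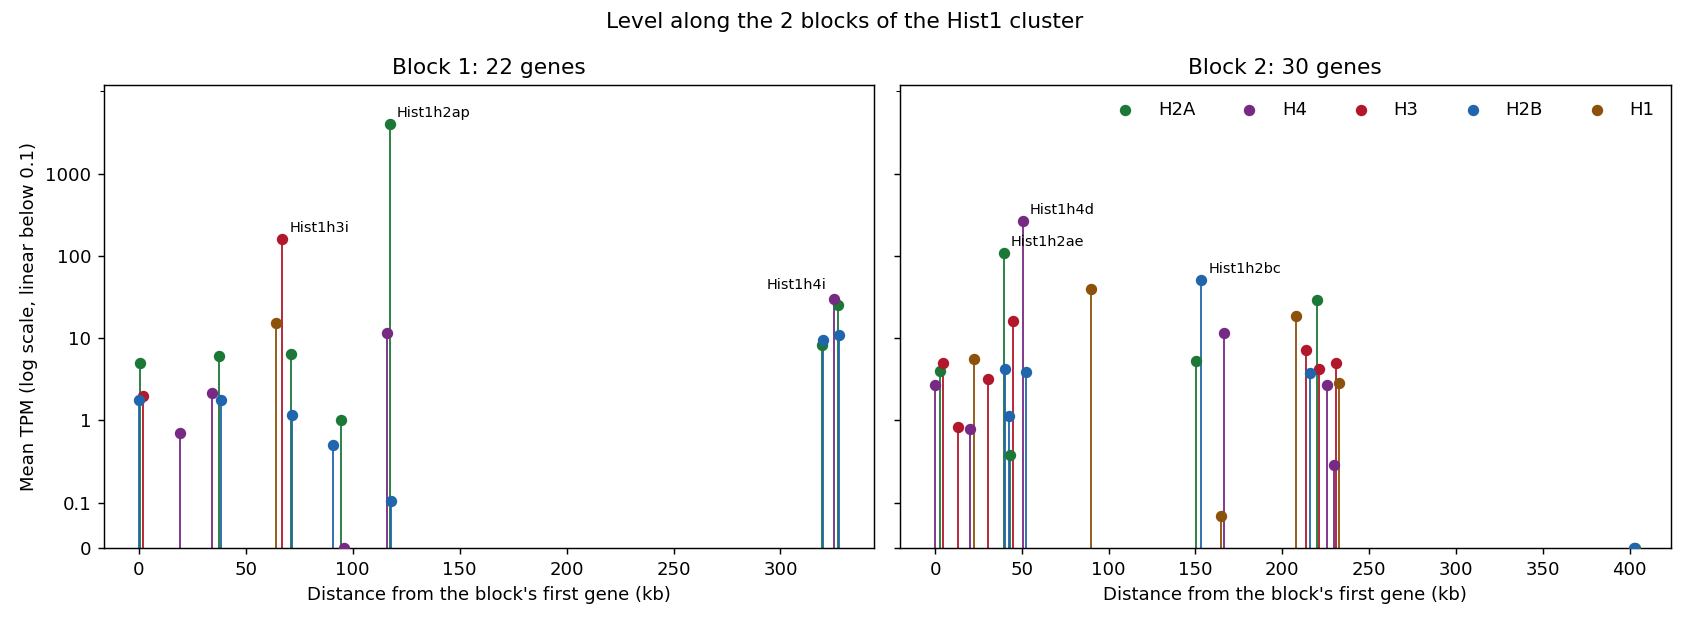
Mean TPM of the Hist1 members (vertical axis, log scale, linear below 0.1) against distance in kb from the first gene of each of the 2 blocks, coloured by family, with the 3 highest of each block named. In both blocks high genes stand between low ones. Hist1h2ap lies between Hist1h4n, at a mean of 11.7 TPM, and Hist1h2br, at 0.105 TPM in its own gene row.

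Many H2A and H2B genes lie head to head and are transcribed away from each other over a short shared region. There were 12 such pairs at most 400 bases apart. The H2A gene was higher in both libraries in 7 pairs and the H2B gene in 2. Hist1h2ap and Hist1h2br differed most, with 3974 and 3961 TPM for Hist1h2ap and 0.210 and 0 TPM for Hist1h2br. A further transcript of Hist1h2br, filed in the tables under another gene identifier, had 5.18 and 4.73 TPM, which leaves the order as it was. Hist1h2ae had 105 and 109 TPM against 4.62 and 3.83 TPM for Hist1h2bg. The order was the opposite for Hist1h2ac, with 7.14 and 3.42 TPM against 52.7 and 48.7 TPM for Hist1h2bc. It was also the opposite for Hist1h2ad against Hist1h2bf, at levels near 1 TPM. In the 3 other pairs the libraries differed in order or both genes had 0 counts. Deposited credibility intervals overlapped in both libraries for Hist1h2ai with Hist1h2bl and Hist1h2ad with Hist1h2bf. They also overlapped in replicate 2 for Hist1h2an with Hist1h2bp and in replicate 1 for Hist1h2ag with Hist1h2bj, so these orders are less certain. On deposited TPM, members of a pair thus held unequal levels in most pairs although their start sites are at most 400 bases apart.

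**Figure D3:**
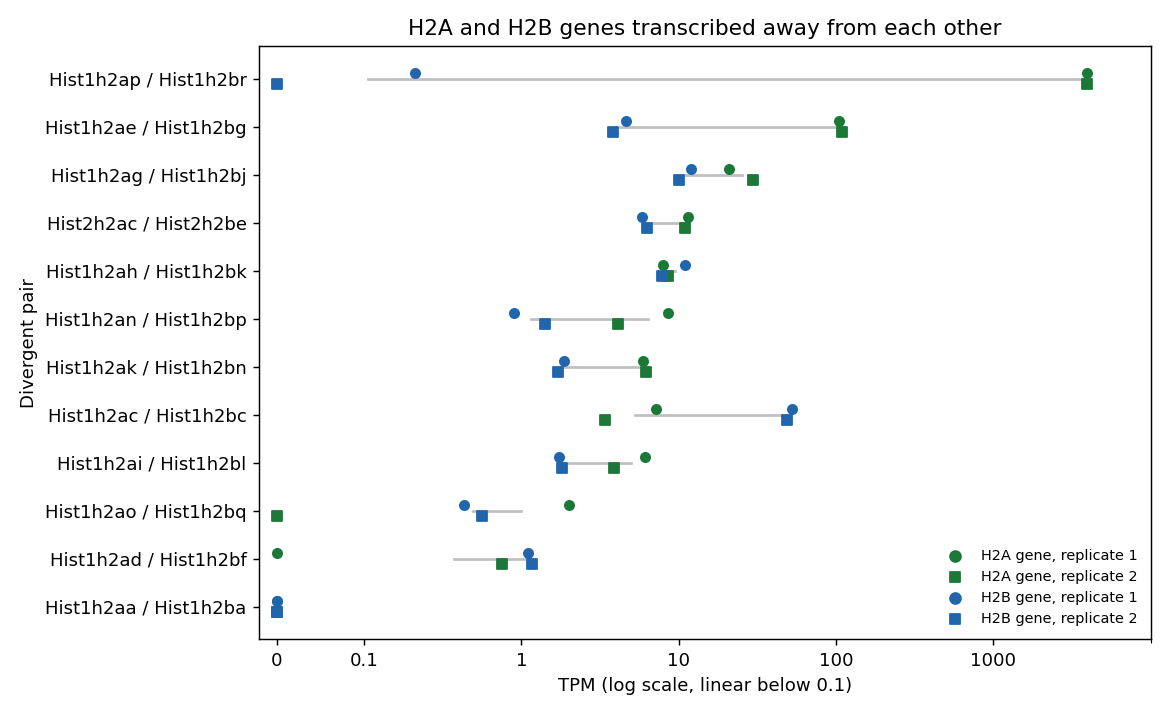
TPM (horizontal axis, log scale, linear below 0.1) of the H2A gene (green) and the H2B gene (blue) of each of 12 divergent pairs, in replicate 1 (circles) and replicate 2 (squares), with a grey line between the 2 means. H2A lies right of H2B in 7 pairs in both libraries, and Hist1h2ac and Hist1h2bc show the opposite order.

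Promoter sequence was available for 58 members from RefSeq on GRCm38.p6, as the 250 bases before the annotated start. The letters TATAAA, on either strand, occurred in 48.3% of member promoters, against 12.4% of 32851 promoters of all genes. CCAAT occurred in 81.0% against 33.8%. All 36 promoters of H1, H2A and H2B genes held it, as did 8 of 10 H3 promoters and 3 of 12 H4 promoters. The octamer ATTTGCAT, whose letters are those bound by the factor Pou2f1, occurred in 7 of 18 H2A and 4 of 13 H2B promoters, in 0 of 27 promoters of the other families and in 1.60% of all promoters. Promoters of a divergent pair overlap, so they are not separate cases. The promoters of the leading H2A and H4 genes are printed with these motifs in capitals, because these genes are the most abundant of their families and differ in motif content. The last 32 bases of the Hist1h2ap window lie inside its M21 gene and are left out.
Hist1h2ap (chr13:21833508-21833725, minus strand): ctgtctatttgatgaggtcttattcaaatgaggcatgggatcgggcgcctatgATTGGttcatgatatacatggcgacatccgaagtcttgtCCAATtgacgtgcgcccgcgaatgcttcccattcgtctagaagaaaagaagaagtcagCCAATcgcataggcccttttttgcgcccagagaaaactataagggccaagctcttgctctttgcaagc
Hist1h4d (chr13:23581318-23581567, plus strand): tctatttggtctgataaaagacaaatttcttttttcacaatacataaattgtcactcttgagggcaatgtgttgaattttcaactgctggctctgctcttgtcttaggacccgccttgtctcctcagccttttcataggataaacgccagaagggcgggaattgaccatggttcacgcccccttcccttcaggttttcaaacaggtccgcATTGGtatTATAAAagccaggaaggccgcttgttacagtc

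The Hist1h2ap window of 250 bases held CCAAT 3 times, counting both strands, and neither of the other motifs. The Hist1h4d promoter held CCAAT and TATAAA once each. The first 150 bases of the Hist1h2ap window are identical to the last 150 of the Hist1h2ao sequence in the same table. The RefSeq start of Hist1h2ao lies 98 bases upstream of the M21 start, so the 2 windows do not cover the same part of the repeat. These matches are a description of letters, not of bound sites.

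On TPM, replacement variants carried most of H3 and H1, and clustered genes most of H2A. Most clustered mRNAs lack a poly(A) tail, most replacement mRNAs have one, and how cDNA was primed is not stated. These shares are therefore uncertain as shares of the RNA in the tissue, and the part of capture in them was not tested. Clustered genes made up 64% ± 1.25 of H2A TPM, with 4232 TPM for clustered genes against 2288 TPM for replacement variants in replicate 1 and 4210 against 2458 TPM in replicate 2. Without Hist1h2ap the clustered share of H2A was 10.1% in replicate 1 and 9.20% in replicate 2. On estimated counts, which are not per length, the share with Hist1h2ap was 40.3% and 38.5%, so clustered genes were the larger part of H2A on TPM but not on counts. Among the replacement H2A genes H2afz (H2A.Z) had 1626 and 1777 TPM, H2afx, the DNA damage variant, 193 and 203 TPM, H2afv 193 TPM in both, the macroH2A gene H2afy 178 and 185 TPM, H2afj 66.0 and 63.9 TPM and H2afy2 33.4 and 35.4 TPM. H2afb1, H2afb2 and H2afb3 were at 0 in both.

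The clustered share was 8.04% ± 1.24 for H3, with 269 TPM for clustered genes against 2749 TPM for replacement genes in replicate 1 and 235 against 3050 TPM in replicate 2. H3f3a and H3f3b, which encode H3.3, had 1419 and 1577 TPM and 852 and 934 TPM in replicates 1 and 2. Cenpa, the centromere variant, had 230 and 233 TPM. H3f3c, at 247 and 305 TPM, is a processed pseudogene in M21 and is included in the replacement sum, and the mean clustered share without it was 8.81%. On estimated counts the clustered share of H3 was 3.25% in replicate 1 and 2.62% in replicate 2. For H1 the clustered share was 43.4% ± 3.07, with 84.8 TPM against 101 TPM in replicate 1 and 79.2 against 113 TPM in replicate 2. H1f0, a variant of slowly dividing and differentiated cells, had 85.2 and 99.4 TPM and H1fx 16.1 and 13.5 TPM. The oocyte gene H1foo had 0 and 0.0400 TPM, and the sperm genes Hils1 and H1fnt were at 0. On estimated counts the clustered share was 25.2% and 22.5% for H1 in replicates 1 and 2. No list of replacement variants was set for H2B and H4.

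**Figure D4:**
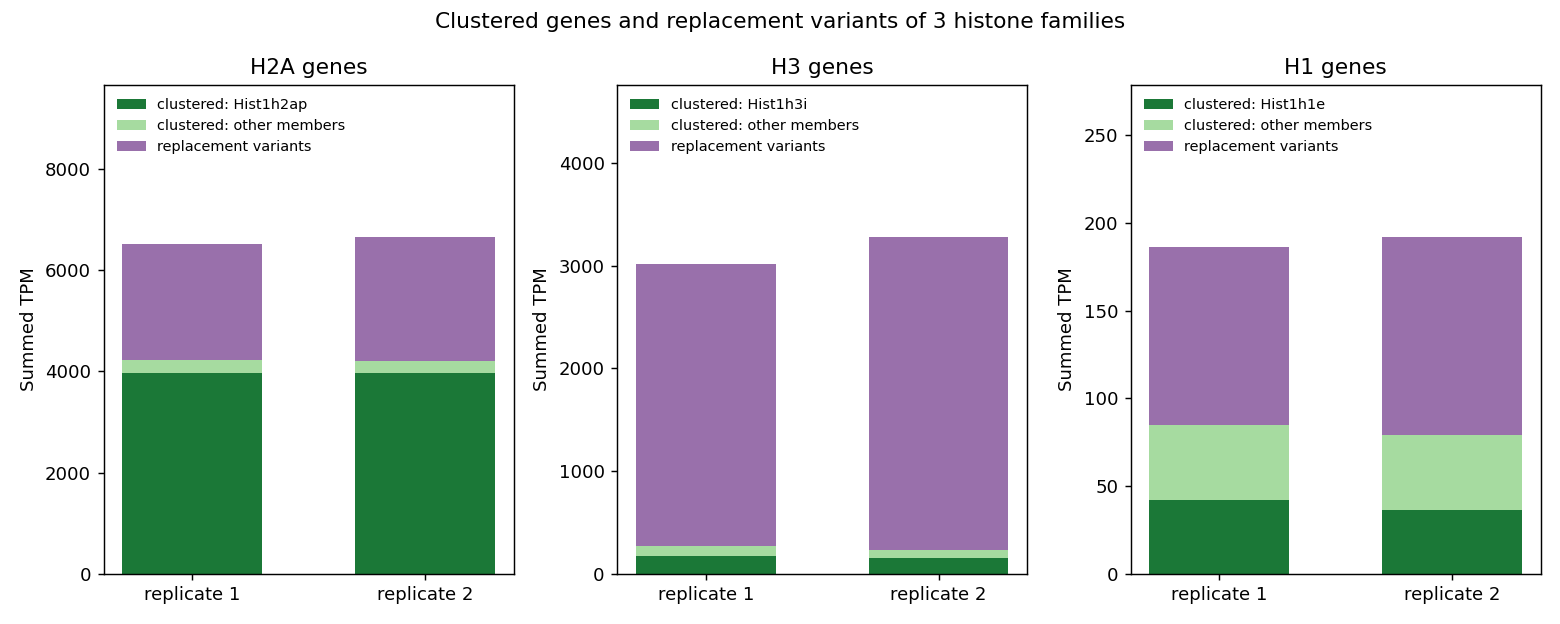
Summed TPM (vertical axis, linear from 0) in replicate 1 and replicate 2 of the leading clustered gene (dark green), the other clustered genes (light green) and the replacement variants (purple) for H2A, H3 and H1. Clustered genes make up 64% of H2A TPM, nearly all of it Hist1h2ap, and 8.04% of H3 TPM. How well mRNAs without a poly(A) tail were captured is not known, so these shares are uncertain.

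The listed genes that make, process and carry histone mRNA or protein were all detected where matched. Detection held for 56.6% of all protein-coding genes, and the lists were chosen with earlier results of these data known. All 13 genes of histone gene transcription and 3′ end processing were detected, with a median of 34.7 ± 4.12 TPM. Slbp, the stem-loop binding protein, had 292 and 324 TPM in replicates 1 and 2, Srrt 88.3 and 97.3 TPM, Cpsf3, the endonuclease of the cleavage complex, 75.8 and 86.4 TPM and Cstf2 42.4 and 53.5 TPM. All 4 matched genes listed here under histone mRNA decay were detected, at a median of 21.8 ± 0.180 TPM. Eri1, the exonuclease that trims the stem-loop, had 29.2 and 35.1 TPM and Lsm1 26.3 and 26.8 TPM. Upf1 had 17.5 and 16.5 TPM and Mblac1 4.42 and 5.10 TPM. The median includes Mblac1, whose part in decay was not tested here. Zcchc11 and Zcchc6 were not matched by symbol. All 26 histone chaperone genes were detected at a median of 88.2 ± 6.90 TPM, led by Npm1 with 1472 and 1475 TPM, Set with 489 and 504 TPM, Rbbp7 with 311 and 362 TPM and the FACT subunit Ssrp1 with 258 and 307 TPM.

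The members were slightly higher in replicate 1 than in replicate 2 after scaling for library size. For the sum of all members the log2 ratio of replicate 1 over replicate 2 was 0.10, on TMM-scaled counts with a pseudocount of 0.5. As a ratio of TPM, with 0.1 TPM added, it was 0.02, so this small difference depends on the scaling. The family sums gave 0.26 for H3 (95% exact binomial interval 0.17 to 0.34), 0.14 for H2B, 0.12 for H1, 0.10 for H4 and 0.09 for H2A. Among the 53 members with a mean of 10 or more counts, 36 had a positive ratio (67.9%), against 47.5% of 14418 protein-coding genes, and the median ratio was 0.14 against -0.01. Within the count range of all these members but Hist1h2ap, 5452 of 10390 protein-coding genes had a positive ratio. Members share reads, so these 53 ratios are not independent. The 11 members under that count were not counted.

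At least 2-fold higher in replicate 1 were 1.95% of protein-coding genes, and 251 of the 10390 in the count range given above. Among the 53 members, 5 were that much higher. They were Hist1h2af with 5.56 TPM in replicate 1 against 2.45 TPM in replicate 2 (log2 ratio 1.24, interval 0.39 to 2.13), Hist1h2ac with 7.14 against 3.42 TPM (1.14), Hist1h2an with 8.58 against 4.11 TPM (1.13), Hist1h3a with 6.57 against 3.30 TPM (1.07) and Hist1h4k with 2.90 against 1.44 TPM (1.04). The interval of Hist1h4k ran from -0.28 to 2.60. With 0.1 TPM added to both values, 3 members were past 2-fold higher on TPM. Hist4h4 was at least 2-fold lower, with 0.330 TPM in replicate 1 against 0.720 TPM in replicate 2 (log2 ratio -1.0, interval -1.80 to -0.27). That held for 1.12% of protein-coding genes, and for 132 of the 10390 in the same count range. Hist4h4 was under 2-fold with DESeq2 size factors, and also on TPM once 0.1 TPM was added to both values. All 6 had under 60 counts on average. None of the members at a mean of 100 or more counts was 2-fold apart. Hist1h2ap, with the narrowest interval, had a ratio of 0.09 (0.07 to 0.11). Intervals cover counting error only and treat shared-out reads as counted, and they excluded 0 for 20 of 53 members (37.7%), against 40.7% of protein-coding genes tested and 32.8% of those within the same count range.

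Tissue markers differed between the pools as well. The 6 heart muscle markers, none of them at 0, summed to 265 TPM in replicate 1 against 115 TPM in replicate 2. Each was higher in replicate 1 (median ratio 1.63 on the log2 scale). The medians were 0.00 for 5 erythroid markers, which summed to 41887 and 42916 TPM, and -0.08 for 4 hepatoblast markers, which summed to 7365 and 8495 TPM. Their part in the histone ratios was not tested.

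**Figure D5:**
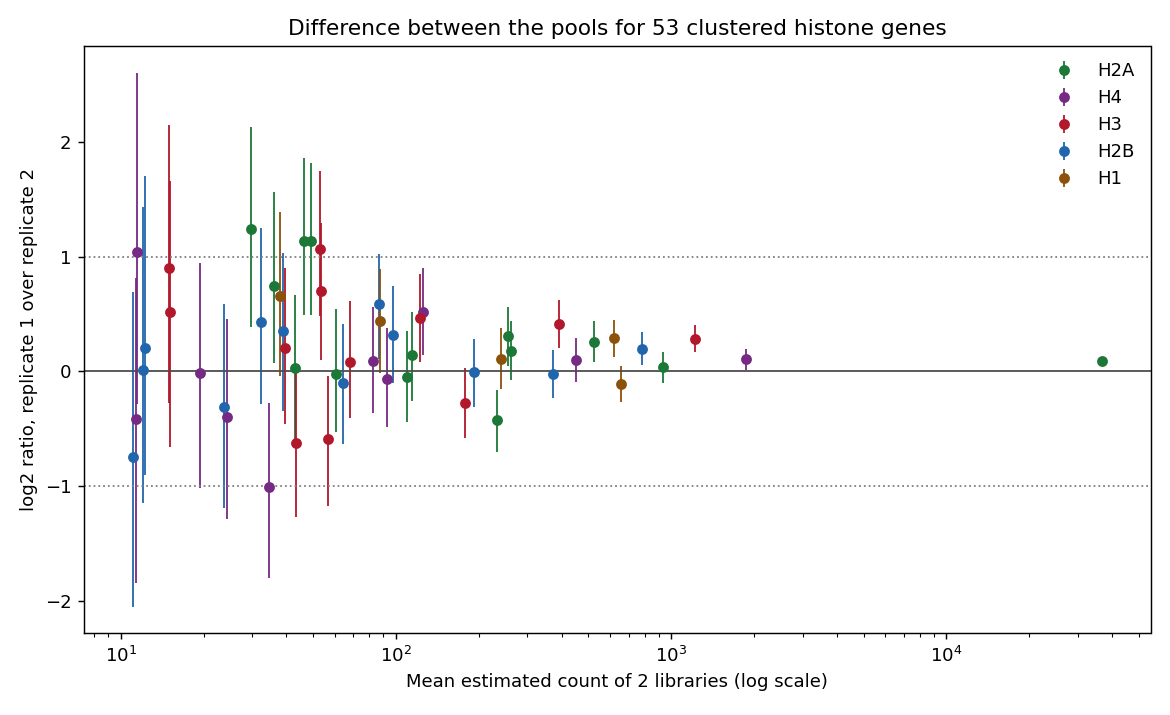
log2 ratio of replicate 1 over replicate 2 (vertical axis) against mean estimated count (horizontal axis, log scale) for the 53 members with a mean of 10 or more counts, coloured by family, with 95% exact binomial intervals and dotted lines at 2-fold. The 6 members past 2-fold lie at low counts, and Hist1h2ap, at the right end, is close to 0.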

How the data were processed

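Per the text notes deposited with the tables, reads were aligned to mm10 and quantified from transcriptome alignments with GENCODE M4. The aligner and quantifier are not named there. Deposited were, per gene and transcript, estimated counts (expected counts that need not be whole), TPM computed over all features with spike-ins included, credibility bounds, and the percent of a gene's TPM per transcript, per the file headers.

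Members were matched by gene identifier without version to GENCODE M21 (GRCm38, of which mm10 is another name). Members and lists were chosen with earlier results of these data known. Levels are deposited TPM, summed per family and per group of identical proteins. No protein table was at hand, so proteins were compared by translating M21 coding sequences with Biopython 1.88, in place of the planned table. Copies share reads, so shares of 100-base windows found in no other M21 transcript are given.

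There is 1 group of 2 pools and no test. Spread between the libraries may be partly technical. For ratios, estimated counts (not rounded) were scaled by TMM factors of edgeR 4.0.16, or by DESeq2 1.42.0 size factors as an alternative, with a pseudocount of 0.5, a mean of at least 10 counts and 2-fold as the call. Total counts per library were 34344230 and 31477397. Exact binomial (95%) intervals and the limit of 3 counts leave out all but counting error, and no molecular identifiers were reported, so reads may repeat molecules. Other code ran in R 4.3.3 and Python 3.11.15.

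Named genes were the 5 highest members per family, members under 1 TPM in both libraries, members 2-fold apart, those with a protein of their own or with a spliced transcript at 1 TPM or more, all replacement variants and the 4 highest genes of each partner list.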

Additional observations from a re-analysis of the deposited data

Results flagged for a closer look

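Some histone transcripts lie outside the 64 gene rows and still exceeded, in both libraries, the TPM that 3 counts would give (0.402 to 0.526 TPM). A transcript of Hist2h2bb, an H2B gene without a row of its own, was filed under another gene identifier with 14.4 TPM in replicate 1 and 12.2 in replicate 2, above the 11.9 and 10.1 TPM of Hist1h2bj. A single-exon transcript of Hist1h2br, the divergent partner of Hist1h2ap, had 5.18 TPM in replicate 1 and 4.73 TPM in replicate 2, where the Hist1h2br gene row had 0.210 and 0 TPM. The corresponding transcript of Hist1h2bq had 1.21 TPM in replicate 1 and 1.92 TPM in replicate 2. Hist1h2aj, an unprocessed pseudogene of the H2A family in M21, had 6.35 TPM in replicate 1 and 8.78 TPM in replicate 2. Windows of 100 bases showed sequence shared with members. Hist1h2aj held 232 of 294 windows of Hist1h2ai, 213 of 306 of Hist1h2ah and 114 of 383 of Hist1h2ap. Transcripts of Hist1h2br held 234 of 377 windows of Hist1h2bk. How many reads were shared out among them was not tested.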

How the results depend on the processing

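No paired analysis was possible because the libraries form 1 group. Leaving out either library gave 4948 to 5023 TPM for all members, 79.2 to 84.8 for H1, 4210 to 4232 for H2A, 96.2 to 105 for H2B, 235 to 269 for H3 and 328 to 332 for H4, and 50 members detected.

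Rescaling TPM to mouse genes, which removes spike-ins from the base, gave 5722 TPM in all, 94.2 for H1, 4844 for H2A, 116 for H2B, 289.9 for H3 and 379 for H4. Posterior mean TPM gave 4874 in all, 4123 for H2A, 324 for H4 (also the H4 protein group), 4050 for the Hist1h2ap protein group and a median of 21.3 for the decay list. Annotated in place of effective length gave 3783 for H2A, 222 for H3 and 283 for H4. Grouping transcripts at least 95% identical gave 4165 for the group of Hist1h2ap, 89.4 for that of Hist1h2bc and Hist1h2bj, 204.7 for Hist1h3i, 41.2 for Hist2h3b and 264 for Hist1h4d. Detection at 5 TPM left 25 members (39.1%, against 43.5% of protein-coding genes). By estimated counts the mean clustered share was 23.8% for H1, 39.4% for H2A and 2.93% for H3, so replacement variants then exceeded clustered genes in H2A.

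After seeing the data, Hist1h2ap was left out, which gave 1018 TPM in all and a clustered H2A share of 9.66%. In H2A, replacement variants were then above clustered genes. H4 was then above H2A on TPM, but on estimated counts not in both libraries. H2B transcripts filed under other gene identifiers were also added after seeing the data (H2B 120.5 TPM).

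Members at least 2-fold higher in replicate 1 numbered 3 on TPM (0.1 TPM added to both values), 3 with a pseudocount of 5, 8 without a filter and 0 at a mean of 100 counts or more. Those 2-fold lower numbered 4 without a filter and 0 with DESeq2 size factors, TPM or rescaled TPM (0.1 added to both values), a pseudocount of 5 or at least 100 counts, where 15 had a positive ratio. The log2 ratio on TPM was 0.0217 for all members, 0.00769 for H2A and 0.0177 for H4, and on rescaled TPM 0.0794 for all members and 0.0654 for H2A. The cause of these shifts was not tested. Ratios of members with few counts are limited by depth.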
